A study of Mus musculus with 6 samples.

Results

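Emx1, Emx2, Eomes, Tbr1, Neurod2, Neurod6, Bcl11b and Fezf2 are transcription factor genes that mark the dorsal telencephalon, its intermediate progenitors and the projection neurons of the cerebral cortex. They were taken by name and by no cutoff on a measured value, with earlier results of these data known. All 8 were found among the 24848 genes of the tables, and all 8 were among the 15848 genes expressed highly enough to be tested. They were measured by RNA-seq in brains of mouse embryos at stage E14.5, 3 of them E4f1 knockout (KO) and 3 wild type (WT). The series concerns the role of the zinc finger protein E4F1 in pyruvate metabolism and in the activity of the Elongator complex in the developing brain. The labels name the KO allele no further, give no Cre driver, strain, litter or sex, and do not say whether each library is a single brain, although each carries its own animal number. If the 3 samples of a group are not separate embryos, the p-values do not measure the spread between embryos. Libraries within a group differed in their counts far beyond counting noise (chi-square per degree of freedom between 43.5 and 168 for each pair).

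In the embryonic cortex, radial glia at the ventricle divide and give rise to intermediate progenitors, which divide again to yield glutamatergic projection neurons. The deep cortical layers are generated first and the upper layers later. EMX1 and EMX2 are homeodomain proteins of the dorsal progenitors, EOMES (also called TBR2) is the T-box protein of intermediate progenitors, and its relative TBR1 follows it in young neurons. NEUROD2 and NEUROD6 are basic helix-loop-helix proteins of postmitotic cortical neurons. FEZF2 and BCL11B (also called CTIP2) are zinc finger proteins of layer V neurons that project to the brainstem and spinal cord, and BCL11B is also made in the striatum.

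The libraries held between 42113465 and 74064707 expected counts. E4f1 had 7.12, 7.01 and 6.92 CPM (expected counts scaled to a common library total by TMM) in KO 1 to KO 3, against 20.7, 21.6 and 21.5 CPM in WT 1 to WT 3. It fell in KO by 1.60 ± 0.08 on the log2 scale (SE, n = 3 per group, edgeR adjusted p = 0.00142), and a count over the whole gene does not separate RNA of a deleted allele from intact RNA. Genes of other brain regions also differed between the libraries. En1, a gene of the midbrain and its border with the hindbrain, had 0.112, 0.858 and 0.960 CPM in KO 1 to KO 3 and 18.6, 10.4 and 1.71 CPM in WT 1 to WT 3. Of 10 midbrain genes, 9 had negative fold changes. None was called by edgeR, while 4 were lower at an unadjusted p below 0.05, against 19.6% of all tested genes in either direction. DESeq2 called 3 lower, En1, En2 and Pax5, against 10.2% of the genes it gave an adjusted p. These 3 genes are the ones that make up the midbrain score used below. The summed level of the 10 was between 373 and 443 CPM in KO and between 416 and 522 CPM in WT, most of it from Meis2, which the forebrain also makes. Of 10 hindbrain genes, only Egr2 was expressed highly enough to be tested. The part of these differences in the results below was not tested, except where a fit with a midbrain score is given. In bulk tissue, fewer cells of a type and less RNA per cell cannot be told apart.

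None of the 8 cortical genes changed in KO brains by the edgeR test at an adjusted p below 0.05, where 0.511% of all tested genes rose and 0.492% fell. None had an unadjusted p below 0.05, against 19.6% of all tested genes. DESeq2, limma-voom and limma on log2(TPM + 1) also called none, although DESeq2 called 10.2% of the genes it gave an adjusted p. KO and WT values overlapped in all 8, whereas the groups did not overlap in 27.6% of all tested genes. Of the fold changes, 7 were positive and 1 negative, with a median of 0.18 against -0.000767 over all tested genes. Adjusted p-values lay between 0.531 and 0.995. Within a genotype, the highest library of a group exceeded the lowest by between 1.38-fold (Bcl11b) and 2.23-fold (Neurod6) in KO and by between 1.69-fold (Bcl11b) and 2.22-fold (Neurod2) in WT. The fitted KO over WT ratios lay between 0.949 (Emx2) and 1.27 (Emx1).

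**Figure D1:**
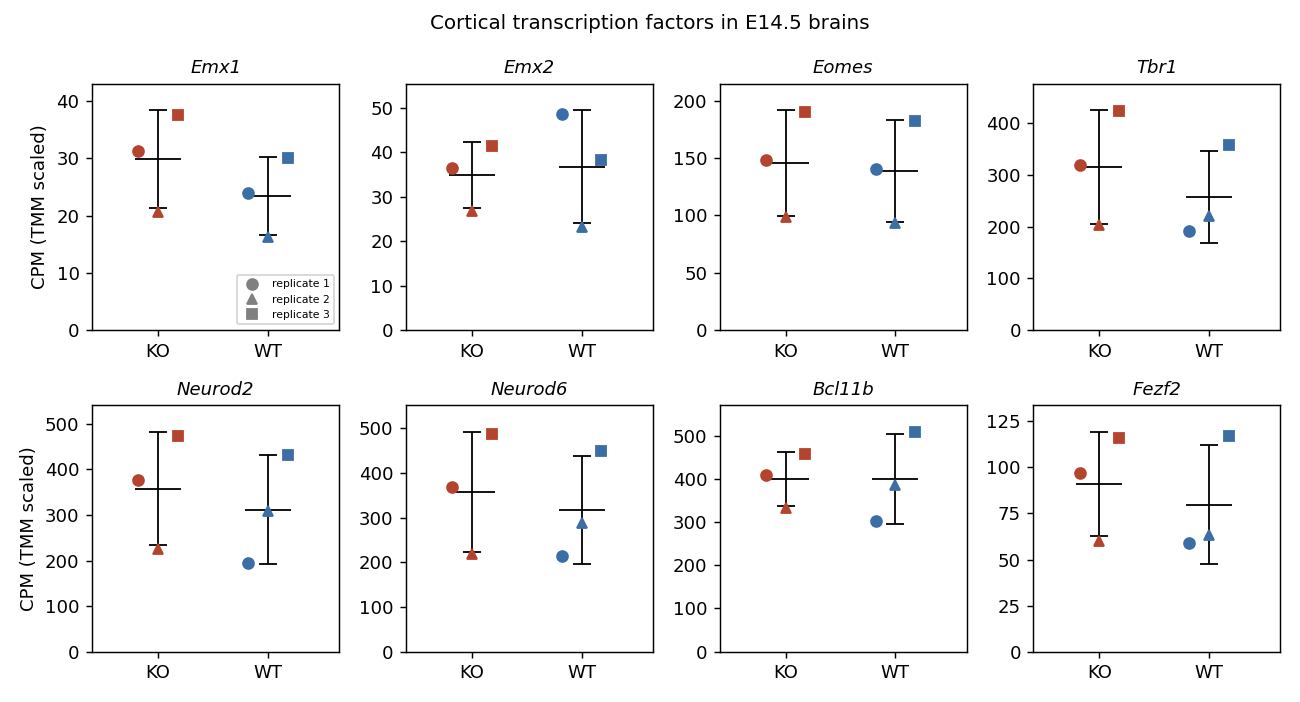
Level of each cortical gene in CPM after TMM scaling (linear axis from 0), with KO to the left of WT. Symbols are single libraries, marked by replicate number, and bars are the mean ± SD of 3 libraries; in all 8 panels the KO and WT points overlap.

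Among the genes of dorsal progenitors, Emx1 (chromosome 6, 85187931 to 85204463, GRCm38) had 31.4, 20.7 and 37.6 CPM in KO 1 to KO 3, against 23.9, 16.3 and 30.0 CPM in WT 1 to WT 3. WT 2 and KO 2 were the lowest libraries and KO 1 and KO 3 the highest. Its log2 fold change was 0.35 ± 0.29 (SE, adjusted p = 0.531), with a 95% interval from -0.35 to 1.05. Emx2 (chromosome 19, 59458690 to 59465357), which is also used in the cortical hem and in the urogenital system, had 36.5, 26.9 and 41.5 CPM in KO and 48.7, 23.3 and 38.4 CPM in WT. WT 1 was highest and WT 2 lowest, so that the WT libraries enclosed all KO values. The log2 fold change was -0.08 ± 0.29 (adjusted p = 0.904, 95% interval -0.77 to 0.62). In GENCODE, 264 exonic bases of Emx2 overlap the antisense gene Emx2os, and the strand setting of the counting is not given in the sources used here. Emx2os had 5.48, 4.03 and 6.17 CPM in KO and 9.17, 3.65 and 5.75 CPM in WT, and was thus highest in WT 1 and lowest in WT 2, as Emx2 was.

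Eomes (chromosome 9, 118478186 to 118486132), the gene of intermediate progenitors, had 148, 98.3 and 191 CPM in KO 1 to KO 3, against 140, 93.0 and 182 CPM in WT 1 to WT 3. Replicate 3 was the highest and replicate 2 the lowest library in each group. The log2 fold change was 0.07 ± 0.31 (adjusted p = 0.917, 95% interval -0.69 to 0.83). An antisense gene that the tables do not list overlaps 118 exonic bases of Eomes.

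Among the neuronal genes, Tbr1 (chromosome 2, 61802863 to 61814114), a gene of deep-layer and especially layer VI neurons, had 320, 204 and 424 CPM in KO 1 to KO 3, against 191, 221 and 358 CPM in WT 1 to WT 3. Its log2 fold change was 0.30 ± 0.33 (adjusted p = 0.643, 95% interval -0.50 to 1.10). Neurod2 (chromosome 11, 98325415 to 98329645) had 376, 225 and 473 CPM in KO, against 195, 308 and 432 CPM in WT. It spread most of the 8 genes over all libraries, by 2.42-fold, and had a log2 fold change of 0.20 ± 0.36 (adjusted p = 0.787). Neurod6 (chromosome 6, 55677818 to 55681263) had 368, 219 and 487 CPM in KO, against 213, 289 and 451 CPM in WT, with a log2 fold change of 0.17 ± 0.37 (adjusted p = 0.820). In Tbr1, Neurod2 and Neurod6 the libraries stood in one and the same order. WT 1 was lowest, followed by KO 2, WT 2, KO 1 and WT 3, and KO 3 was highest.

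The promoters of these 3 genes are shown because their transcripts shared that order in all 6 libraries. Each window runs from 250 bases before to 50 bases after a RefSeq start (GRCm38.p6), written 5′ to 3′ on the strand of the gene: Tbr1 at chr2:61804203-61804502 on the plus strand, Neurod2 at chr11:98329596-98329895 on the minus strand and Neurod6 at chr6:55681214-55681513 on the minus strand. The start used for Tbr1 lies inside the gene, downstream of the first base of the span given above. Capitals mark matches on either strand to TGACGT (the core of ATF-type sites, to which E4F1 was first described to bind), to CAGATG (an E-box of the kind that proneural and NEUROD proteins recognise) and to CCAAT, and no matches overlap.
Tbr1: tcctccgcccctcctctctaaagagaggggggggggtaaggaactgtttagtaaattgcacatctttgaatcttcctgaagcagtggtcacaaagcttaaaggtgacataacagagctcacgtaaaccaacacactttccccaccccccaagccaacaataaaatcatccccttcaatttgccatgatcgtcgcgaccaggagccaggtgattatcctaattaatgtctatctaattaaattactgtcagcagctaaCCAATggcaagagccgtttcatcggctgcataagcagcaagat
Neurod2: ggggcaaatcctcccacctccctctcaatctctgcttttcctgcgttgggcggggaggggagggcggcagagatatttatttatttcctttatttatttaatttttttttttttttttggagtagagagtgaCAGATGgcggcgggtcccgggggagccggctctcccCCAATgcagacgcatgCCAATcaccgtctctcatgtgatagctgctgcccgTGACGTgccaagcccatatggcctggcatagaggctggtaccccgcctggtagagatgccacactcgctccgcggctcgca
Neurod6: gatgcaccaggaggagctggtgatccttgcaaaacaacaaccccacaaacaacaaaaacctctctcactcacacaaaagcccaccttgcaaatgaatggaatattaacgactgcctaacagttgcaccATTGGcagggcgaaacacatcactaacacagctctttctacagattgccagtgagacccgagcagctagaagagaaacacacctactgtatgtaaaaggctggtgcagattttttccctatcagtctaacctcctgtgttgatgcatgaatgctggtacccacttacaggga
CCAAT or its complement ATTGG was found in all 3 windows, in 5 of the 8 genes and in 37.4% of 32851 mouse promoter windows of this length. TGACGT occurred in 1 of the 8 windows, that of Neurod2 at bases -31 to -26 from the start, against 7.51% of all windows. CAGATG likewise occurred only in the Neurod2 window among the 8, against 17.2% of all windows. A match of letters is a description and not a measured site.

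Fezf2 (chromosome 14, 12338992 to 12346803) had 96.9, 60.1 and 116 CPM in KO 1 to KO 3, against 58.8, 63.5 and 117 CPM in WT 1 to WT 3. Its log2 fold change was 0.19 ± 0.34 (adjusted p = 0.787, 95% interval -0.64 to 1.01). Bcl11b (chromosome 12, 107910403 to 108004145) had 410, 332 and 458 CPM in KO, against 301, 387 and 509 CPM in WT. With 1.69-fold between its extreme libraries it varied least of the 8 genes, and its log2 fold change was 0.00 ± 0.21 (adjusted p = 0.995, 95% interval -0.51 to 0.51). In both genes the 4 lowest libraries came in the order given for Tbr1, and WT 3 stood above KO 3 at the top. As ratios of KO over WT, the 95% intervals ran from 0.703 to 1.43 for Bcl11b, the narrowest of the 8, and from 0.705 to 2.14 for Tbr1.

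Set per transcript length, the 8 genes kept nearly the same order of abundance in every library. Over the 6 libraries Neurod6 averaged 436 ± 147 TPM (the length-scaled level; SD, n = 6), Neurod2 286 ± 93.3, Tbr1 190 ± 61.2, Bcl11b 132 ± 25.1, Fezf2 102 ± 32.8, Eomes 102 ± 28.5, Emx1 69.7 ± 19.8 and Emx2 37.7 ± 9.85 TPM. Each gene exceeded the next in all 6 libraries, except that Fezf2 exceeded Eomes in 5 of them. The ranges of mean ± SD of neighbouring genes overlapped for each pair except Emx1 and Emx2.

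The 8 genes varied together over the libraries. KO 3 and WT 3 were among the 3 highest libraries for all 8 genes, and KO 2 and WT 2 among the 3 lowest for all 8. The animal numbers of KO 3 and WT 3 lie apart from those of the other libraries, which lie close together. Whether this split in the labels bears on the shared variation was not tested. The ratio of the highest to the lowest library, between 1.69 and 2.42, was larger than the median of 1.34 over 11746 tested genes with at least 5 CPM. Within the 8 genes, the lowest library went with role. WT 1 was lowest for the 5 neuronal genes Tbr1, Neurod2, Neurod6, Bcl11b and Fezf2, whereas WT 2 was lowest for the 3 progenitor genes Emx1, Emx2 and Eomes. Neurog2, the proneural gene of dorsal progenitors, also differed between these 2 libraries, with 124 CPM in WT 1 and 43.5 CPM in WT 2. Deep-layer genes outside the 8 did not all share the neuronal pattern. Zfpm2 and Foxp2 were highest in WT 1, with 53.3 and 134 CPM, while Ldb2 and Lmo3 were lowest there, with 36.3 and 108 CPM.

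**Figure D2:**
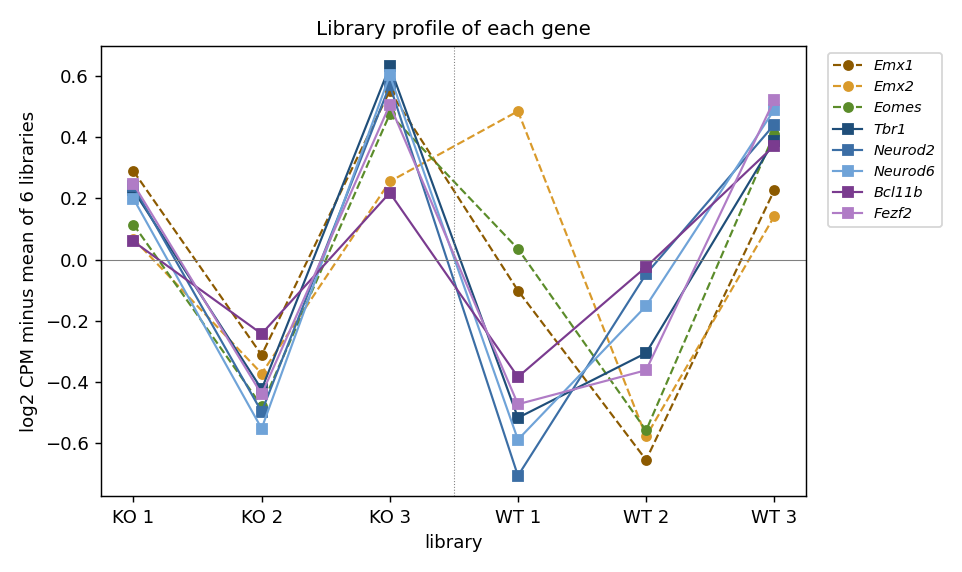
Log2 CPM of each cortical gene minus its mean over the 6 libraries, KO libraries left of WT libraries. Lines join the values of a gene and imply no order of libraries; dashed lines are Emx1, Emx2 and Eomes, solid lines the 5 neuronal genes, and WT 1 is the lowest library of all solid lines while WT 2 is the lowest of all dashed ones.

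For 5 pairs of these genes, chosen after the values were seen, the ratio within each library was compared between the groups. Emx1 stood at 0.860, 0.769 and 0.906 of the level of Emx2 (in CPM) in KO 1 to KO 3, against 0.491, 0.699 and 0.783 in WT 1 to WT 3. Only WT 3 lay inside the KO range. Tbr1 over Eomes, a neuron to progenitor ratio, was 2.16, 2.07 and 2.22 in KO and 1.36, 2.38 and 1.96 in WT, so that the KO libraries lay close together and within the WT range. Neurod6 over Neurod2 was between 0.970 and 1.03 in KO and between 0.937 and 1.09 in WT. Fezf2 over Tbr1 was between 0.273 and 0.303 in KO and between 0.287 and 0.327 in WT, and Fezf2 over Bcl11b between 0.181 and 0.253 in KO and between 0.164 and 0.230 in WT. None of the 5 ratios differed between the groups by a two-sided exact permutation test (p between 0.2 and 0.6, 0.6 after adjustment over the 5), and 3 brains against 3 cannot give a p below 0.1.

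The edgeR test was also fitted with a midbrain score as a covariate, which averages Pax5, En1 and En2 in log2 CPM. With it all 8 fold changes were negative, between -0.90 ± 0.52 (Neurod6) and -0.10 ± 0.60 (Emx2), with adjusted p-values of 0.989 or more. Bcl11b, at -0.69 ± 0.25, was the 1 gene of the 8 with an unadjusted p below 0.05 in this fit, against 4.68% of all tested genes. That score was -3.39, -1.47 and -2.19 in KO 1 to KO 3 and 4.12, 3.18 and -0.24 in WT 1 to WT 3. It was higher in every WT library, so that the score and the genotype cannot be told apart in this fit.

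**Figure D3:**
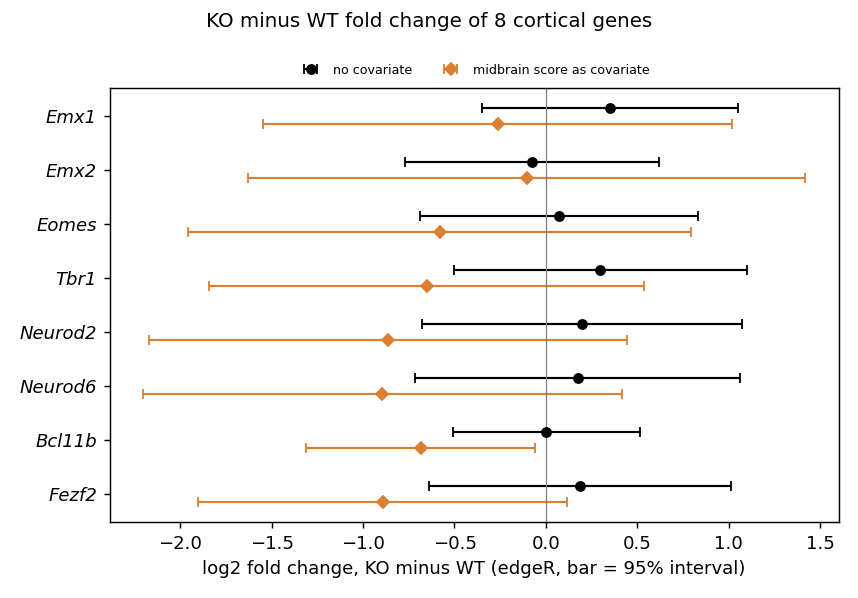
Log2 fold change of each cortical gene, KO minus WT, from edgeR without a covariate (circles) and with the midbrain score as a covariate (diamonds), with 95% intervals. All 8 values are negative with the covariate, and the intervals of both fits include 0 for every gene except Bcl11b with the covariate (-1.31 to -0.057).

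Lists of other cortical genes held 52 tested genes, of which Zfpm2 alone fell and none rose (1.92%, where 0.492% of all tested genes fell). At an unadjusted p below 0.05, 6 were lower and none higher (11.5%, against 19.6%), with 27 negative and 25 positive fold changes. Deep-layer neurons were represented by 12 genes. All 12 had negative fold changes (median -0.14), and scaling by library totals alone left 7 negative (median -0.07). This list leaves out Tbr1, Fezf2 and Bcl11b, which are also deep-layer genes. Their log2 fold changes were 0.30, 0.19 and 0.003, so that none was negative. Zfpm2 (FOG2), a cofactor of GATA proteins found in layer VI neurons, had 36.2, 33.3 and 36.3 CPM in KO 1 to KO 3, against 53.3, 50.5 and 48.3 CPM in WT 1 to WT 3. It fell by 0.52 ± 0.07 on the log2 scale (adjusted p = 0.0372), and it was called in none of the 6 fits that left out 1 library (adjusted p between 0.0900 and 0.207). Its call also ended when libraries were scaled by their totals (adjusted p = 0.0680) and with the midbrain score as a covariate (adjusted p = 0.989). Sox5, which shapes the deep layers, had a log2 fold change of -0.01 ± 0.31. Foxp2, used in layer VI but also in the thalamus, midbrain and striatum, had 64.5, 89.4 and 53.9 CPM in KO and 134, 118 and 117 CPM in WT, with a log2 fold change of -0.82 ± 0.19 (adjusted p = 0.107; DESeq2 adjusted p = 0.00129).

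In the other 4 lists no gene was called by edgeR with all libraries and the filter used throughout, or by limma-voom. Dorsal telencephalic progenitors (12 genes, median log2 fold change 0.23, 1 lower at an unadjusted p below 0.05) ranged between -0.29 (Nr2f1, an area gene) and 0.55 (Tfap2c), with Pax6, the main factor of cortical radial glia, at 0.08 ± 0.23 and Neurog2 at 0.27 ± 0.39. Intermediate progenitors (11 genes, median -0.01, or 0.06 under scaling by library totals, 1 lower at an unadjusted p below 0.05, and Elavl2 called lower by DESeq2, by edgeR with at least 1 CPM in 3 libraries and by edgeR without WT 2, where its adjusted p was 0.0314) ranged between -0.74 (Neurod4) and 0.48 (Insm1, which promotes the making of these cells), with Neurod1 at -0.03 ± 0.27. Upper-layer neurons (11 genes, median 0.09, none at an unadjusted p below 0.05) ranged between -0.22 (Rorb) and 0.37 (Pou3f3). Cux1, a homeodomain gene of upper-layer neurons, was at -0.13 ± 0.06 (adjusted p = 0.284). Genes of glutamatergic neurons (8 genes, median -0.14, 1 lower at an unadjusted p below 0.05) ranged between -0.69 (Grin2b, an NMDA receptor subunit) and 0.23 (Gria2, an AMPA receptor subunit). Slc17a7, the vesicular glutamate transporter that prevails in the cortex, was at 0.15 ± 0.32. Slc17a6, the transporter that prevails in the thalamus and midbrain, had 73.3, 86.1 and 66.2 CPM in KO and 125, 113 and 88.6 CPM in WT, with a log2 fold change of -0.53 ± 0.16 (adjusted p = 0.154; DESeq2 adjusted p = 0.0235).

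**Figure D4:**
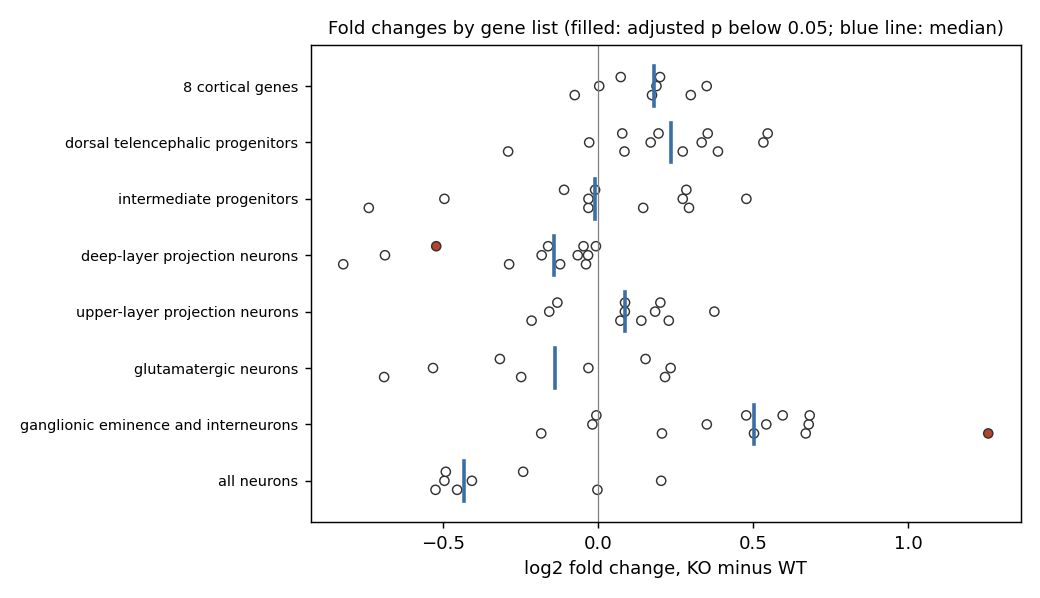
Log2 fold changes, KO minus WT, of the 8 cortical genes and of the tested genes of 7 other lists. Each circle is a gene, filled at an edgeR adjusted p below 0.05 (Zfpm2 among deep-layer neurons and Gsx2 in the ganglionic eminence), and the blue lines are the medians, which are 0.18 for the 8 cortical genes, -0.14 for deep-layer neurons, 0.50 for the ganglionic eminence and -0.43 for all neurons.

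Most genes of the ventral telencephalon had positive fold changes. Of 13 genes of the ganglionic eminences and their interneurons 10 had positive fold changes, with a median of 0.50, and Gsx2, a homeodomain gene of lateral ganglionic eminence progenitors, rose, with 8.41, 7.67 and 7.74 CPM in KO 1 to KO 3 and 3.03, 2.75 and 4.15 CPM in WT 1 to WT 3 (log2 fold change 1.26 ± 0.19, adjusted p = 0.0456). Gsx2 was called in none of the 6 fits that left out 1 library (adjusted p between 0.0550 and 0.255), in which its log2 fold change lay between 1.14 and 1.46. Its call also ended with RLE size factors (adjusted p = 0.0502), with no filter on low counts (adjusted p = 0.0508) and with the midbrain score as a covariate, where the log2 fold change was 0.74 (adjusted p = 0.989). Of the 13 genes, 5 were higher at an unadjusted p below 0.05 and DESeq2 called 4 higher. Among 8 genes of neurons in general 7 had negative fold changes and none was called by edgeR, with 5 lower at an unadjusted p below 0.05 and 4 called lower by DESeq2. Over all tested genes, in either direction, 19.6% had an unadjusted p below 0.05 and DESeq2 called 10.2%.

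The 5 genes whose library profile was most like the mean profile of the 8 cortical genes were Tbl1xr1, Rasgef1b, Bag4, Rock1 and Ptk2, with Pearson's r of 0.995, 0.984, 0.980, 0.980 and 0.976 over 6 libraries, among 11738 other genes with at least 5 CPM. These r values are a description of 6 points that share their libraries and their mix of brain regions. The profiles were alike in shape and not in size. Tbl1xr1, a subunit of the NCoR corepressor complex, had 101, 89.9 and 110 CPM in KO 1 to KO 3, against 92.6, 92.2 and 108 CPM in WT 1 to WT 3. Rasgef1b had 92.3, 73.8 and 105 CPM in KO and 73.1, 77.1 and 104 CPM in WT. All 5 had small fold changes, between 0.03 and 0.09, and none was called.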

How the data were processed

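The submitters' processing notes name RSEM (version 1.2.28), STAR (version 2.5.3a), Trimmomatic and FastQC, and mm10 and GRCm38. Their order, their settings and the counting strand were not given in the sources used here. The deposited tables hold an expected count, the read pairs RSEM assigns to a gene, and the authors' TPM, which is scaled by transcript length and keeps no depth.

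Expected counts were rounded and tested with edgeR (version 4.0.16): filterByExpr with groups, TMM scaling, robust quasi-likelihood F test of KO against WT, two-sided, with Benjamini-Hochberg adjustment over all 15848 tested genes. Every adjusted p is from this test unless another tool is named. SEs follow from the F statistic. The exact permutation tests ran over samples. DESeq2 (version 1.42.0), limma (version 3.58.1) on voom and TPM values, other scalings and filters, a midbrain covariate and left-out libraries were alternatives. The edgeR step was tested on simulated data.

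Members, lists and tests were chosen with earlier results of these data known. Named genes are the 8 members, genes taken as gauges or landmarks, called genes of the cortical lists or, in lists with none, their extremes, and the 5 most alike profiles. Emx2os, Foxp2, Elavl2, Ldb2, Lmo3, Meis2, Egr2 and Gsx2 were named after their values were seen. Gene coordinates and promoters are from RefSeq (GRCm38.p6). Each member had at least 670 counts per library. A planned comparison relative to a single other gene, and the fit with that gene as a covariate, are not reported here.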

Additional observations from a re-analysis of the deposited data

How the results depend on the processing

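None of the 8 cortical genes was called under any of the 18 alternative fits. The count of all called genes, 159, became 1525 with DESeq2, 66 with the replicate number as a block, 0 with the midbrain score as a covariate and 0 with KO 1, KO 2, WT 1 and WT 2 only (741 and 1546 at an unadjusted p below 0.05 by edgeR in the last 2, and 3106 without a covariate), and lay between 36 and 82 when 1 library was left out. The 1 call among the other cortical lists became 4 with DESeq2, 2 with at least 1 CPM in 3 libraries, and between 0 and 1 when 1 library was left out. It became 0 with library totals, the replicate block, KO 1, KO 2, WT 1 and WT 2 only, or the midbrain score as a covariate. In these fits, in that order, 6, 11, 6 and 5 of the 52 genes had an unadjusted p below 0.05 by edgeR. Over all tested genes the counts were 3130 of 15848, 3845 of 15848, 1546 of 15951 and 741 of 15848. KO 1, KO 2, WT 1 and WT 2 are the libraries whose animal numbers lie close together. The cause of these changes in the counts was not tested.

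Directions of the cortical genes turned in several fits. With the midbrain score, the log2 fold changes were -0.26 for Emx1, -0.58 for Eomes, -0.65 for Tbr1, -0.86 for Neurod2, -0.90 for Neurod6, -0.69 for Bcl11b and -0.89 for Fezf2. Bcl11b was at -0.00266 and -0.00253 with limma on log2(TPM + 1) and log2(TPM + 0.1). When 1 library was left out, values lay between 0.15 and 0.57 for Emx1 (lowest without KO 3), 0.024 (without KO 3) and 0.62 (without WT 3) for Tbr1, -0.32 and 0.18 for Emx2, -0.17 and 0.32 for Eomes, -0.056 and 0.51 for Neurod2, -0.12 and 0.51 for Neurod6, -0.16 and 0.22 for Bcl11b and -0.030 and 0.57 for Fezf2.

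Same-numbered KO and WT libraries deviated from their group means with correlations of 0.131, 0.174 and 0.00121 over all tested genes. The labels do not say whether the replicate numbers pair the samples, and so few correlations cannot decide it. KO 1 and KO 2 correlated best with the WT library of their own number and KO 3 did not. Under the replicate block Emx1 had a log2 fold change of 0.35 with an adjusted p of 0.0935, and none of the 8 cortical genes was called. Emx1 was the 1 gene of the 8 with an unadjusted p below 0.05 there (0.00367 by edgeR), against 3845 of all 15848 tested genes. Of the 52 tested genes of the other cortical lists, 11 were below 0.05 in that fit. The calls of Zfpm2 and Gsx2 ended there too (adjusted p of 0.0706 and 0.0772 by edgeR).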
